A study of Mus musculus with 5 samples.

Results

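A set of 332 RNA polymerase II (RNAPII) binding regions that carried R-loop signal but no listed peak of the negative elongation factor NELF was described in primary mouse mammary epithelial cells. The regions were the RNAPII peaks under 5000 bp wide that overlapped, by 1 bp or more, a peak of the R-loop assay DRIP-seq and overlapped no peak of NELF-A and none of NELF-B. They made up 4.30% of the 7718 RNAPII peaks and stood on 325 DRIP peaks, which were 3.24% of the 10031 DRIP peaks. Among the 2021 RNAPII peaks under 5000 bp without NELF, 16.4% (95% Wilson interval 14.9 to 18.1%) carried DRIP; among all 7309 RNAPII peaks under 5000 bp it was 19.2%. The regions were thus chosen by measured values, namely their width and their overlap with DRIP and NELF peaks, which are given below as a description with no test.

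The study mapped RNAPII, NELF-A, NELF-B and R-loops in cells of virgin mice aged 6 to 8 weeks, of strain "mixed". Organoids from thoracic and inguinal glands, the latter freed of lymph nodes, were dissociated to single epithelial cells. The labels name no genotype and no treatment of the animals, so the 4 lists used here differ in the target of the antibody and in library preparation. The NELF-A and NELF-B antibodies were homemade, and their libraries had 18 cycles of PCR from 0.2 ng of DNA, against 15 cycles from 1 ng for RNAPII and 15 cycles for DRIP. The material was sonicated for ChIP-seq whereas DNA was digested for DRIP-seq. Each target had 1 list, and the lists of RNAPII and DRIP each stand for 2 libraries named in the title. The sample treated with RNase H, an enzyme that removes the RNA strand of an R-loop, was not analysed here, and whether the DRIP peaks are sensitive to it was not tested. The lists give positions in mm9 and no gene names, and an mm9 annotation was not used here. The identity of the cells was therefore not checked against marker genes, and regions are named by position.

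NELF is a complex that binds RNAPII shortly after transcription starts and holds it in a paused state near the promoter. Once the pause is released, NELF leaves and the polymerase proceeds through the gene, so RNAPII within gene bodies and past gene ends is generally found without it. R-loops, in which the nascent RNA pairs with the template strand and leaves the other strand single, are known to form at promoters, within transcribed genes and at their ends. DRIP-seq recovers them with an antibody against RNA-DNA hybrids. RNAPII with R-loop signal and without a NELF peak was thus a class in which polymerase and hybrid could be placed relative to the nearest site of NELF.

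The DRIP-bearing NELF-free peaks were somewhat wider than RNAPII peaks at large, and their RNAPII score per base lay toward the lower end of the list. Their width had a median of 1250 bp (quartiles 750 and 2250), against 1000 bp for all RNAPII peaks under 5000 bp. A width of 500 or 750 bp was found at 116 peaks (34.9%, against 40.1% of all) and one of 3500 bp or more at 37 (11.1%, against 3.54%). The authors' RNAPII score, a whole number per peak without a stated unit, had a median of 277 (quartiles 160 and 558) and reached from 104, the lowest score of the whole RNAPII list, to 3044. Score rose with width across these peaks (Spearman's rho 0.983, n = 332 peaks, a description of how the score is built), so it was also divided by width. Per 250 bp the median was 56.4 (quartiles 53.5 and 62.2), against 60.3 for all RNAPII peaks under 5000 bp and a floor of the list at 51.8. Values under 55 per 250 bp were found at 124 of the 332 peaks (37.3%), where all RNAPII peaks under 5000 bp stood at 24.0%. They were found at 49.6% of RNAPII peaks with neither DRIP nor NELF and at 5.42% of those with DRIP and NELF-A.

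At comparable width, their RNAPII score per base lay near that of RNAPII peaks with neither DRIP nor NELF and below that of DRIP-bearing peaks with NELF-A. Among peaks of 1000 to 1500 bp, the median per 250 bp was 56.0 for the 90 DRIP-bearing NELF-free peaks and 55.8 for 416 peaks with neither. It was 68.1 for 154 peaks with DRIP and NELF-A but no NELF-B, and 75.6 for 226 peaks with DRIP and both subunits. Among peaks of 1750 to 4750 bp the 4 medians were 62.7, 61.5, 77.3 and 91.1 in the same order. Among those of 500 to 750 bp they were 53.3, 54.0, 56.0 and 58.5. The classes were split by overlap with DRIP and NELF peaks, and the RNAPII score was not part of the rule. The higher score at NELF sites is given as a description and was not tested.

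**Figure D1:**
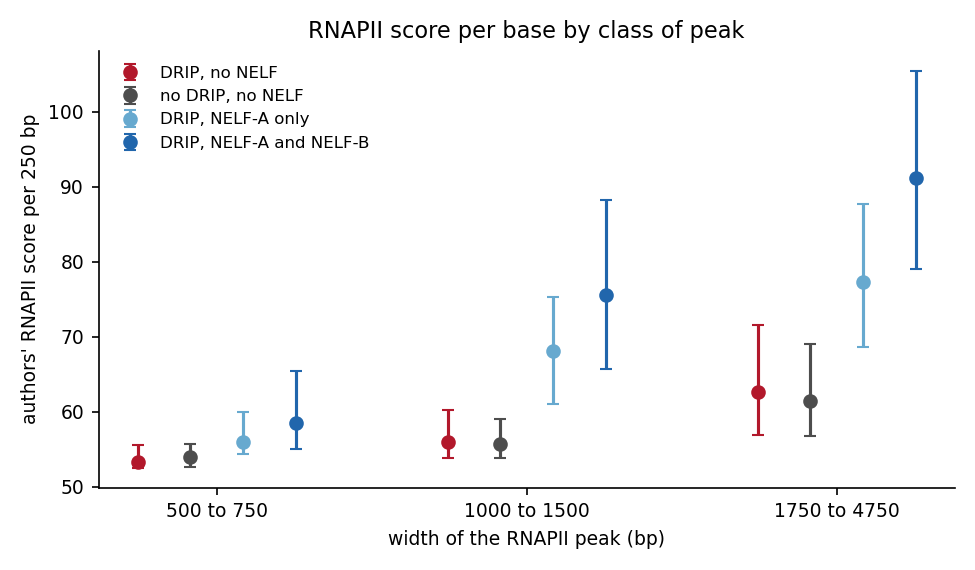
RNAPII score per 250 bp (authors' score, vertical axis) in 3 classes of RNAPII peak width (horizontal axis), as median (points) and quartiles (bars) over peaks for 4 classes of peak. The DRIP-bearing NELF-free peaks (red) lie beside the peaks with neither DRIP nor NELF (grey), with medians of 56.0 and 55.8 at 1000 to 1500 bp, and below both classes with DRIP and NELF-A (blue), at 68.1 and 75.6.

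A few of the peaks stood far above the rest in score. The highest, on chromosome 11 from 120203751 to 120207250, was 3500 bp wide with a score of 3044, or 217 per 250 bp. It was the single DRIP-bearing NELF-free peak among the 78 RNAPII peaks in the top 1% by score per base. It lay 500 bp from an RNAPII peak with NELF-A, NELF-B and DRIP that ran from 120207751 to 120212000 and had a lower score of 1902. DRIP covered 50% of its length. The second, on chromosome 12 from 86825501 to 86829250, scored 1622 and lay 1000 bp from a 12000 bp RNAPII peak with NELF-A that scored 14644. DRIP reached 250 bp into it, or 6.67% of its length. On the X chromosome, the peak from 12871001 to 12873500 scored 1341 and lay 1000 bp from a 13000 bp peak with NELF-A that scored 6810.

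Of the other 7 among the 10 highest scores, 6 also lay within 10 kb of an RNAPII peak with NELF-A. On chromosome 3, the peak from 93330001 to 93334500 scored 1505 and had such a peak 750 bp away. That on chromosome 19 from 46386751 to 46391000 scored 1465 and had one 1000 bp away. These 2 neighbours were 5250 and 4250 bp wide. The peak on chromosome 15 from 103075251 to 103080000 scored 1488, with NELF-A-holding RNAPII at 3000 bp. Another on chromosome 19, from 6375501 to 6379750, scored 1432, with NELF-A-holding RNAPII at 5000 bp. On chromosome 7 the peak from 3299751 to 3304250 scored 1369 and had it at 6250 bp. All 3 had a further RNAPII peak within 500 bp. The peak on chromosome 17 from 35104501 to 35107250 scored 1363 and stood 7500 bp from a small RNAPII peak of 750 bp with NELF-A, its nearest RNAPII neighbour. The exception to the 10 kb range was the tenth score, 1199, of the peak on chromosome 11 from 82765251 to 82769250. It touched another RNAPII peak, but its nearest RNAPII peak with NELF-A was 80250 bp away. For 8 of the 10 peaks the nearest NELF-A-holding RNAPII peak also held DRIP, as it did for 240 of all 332 (72.3%). Among RNAPII peaks with neither DRIP nor NELF the share was 48.0%. The counts of 8 and 240 include cases where both RNAPII peaks lie on the same DRIP peak.

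The edges of the rule ran through a continuous range of values. Of the peaks with DRIP and without NELF, 2 were 4750 bp wide, with a median score of 1337.5, and 4 were 4500 bp wide. Just outside the limit, 3 were 5000 bp wide with a median score of 1611, and 55 in all were 5000 bp or wider. The least DRIP overlap was 250 bp, 1 step of the grid on which the lists are drawn, and 48 peaks had no more than that. Just outside, 47 peaks without NELF touched a DRIP peak without overlapping it and 64 had one at a gap of 250 bp. On the NELF side, 8 of the 332 peaks touched a NELF-A peak and 11 had one at a gap of 250 bp. Conversely, 7 RNAPII peaks with DRIP overlapped NELF-A by 250 bp alone and were counted as having NELF. The 5 widest peaks within the rule included 2 not named above, which were on chromosome 8 from 77619251 to 77624000, scoring 1187, and on chromosome 19 from 6370751 to 6375250, scoring 1186.

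The extent of DRIP over these peaks is given as a description, since overlap with DRIP chose them. Of the summed length of the 332 peaks, 531 kb, DRIP covered 311 kb, or 58.6%. DRIP lay over 50% or more of the length at 240 peaks (72.3%). On the 250 bp grid any overlap covers at least 50% of a 500 bp peak, and 63 of the peaks were that wide. By width, the share covered to that extent was 90.5% at 500 to 750 bp. It was 77.8% at 1000 to 1500 bp and 51.6% at 1750 to 4750 bp. With DRIP and NELF-A but no NELF-B it was 73.0%, 59.1% and 55.7%, and with DRIP and both subunits 92.9%, 61.1% and 58.1%. The median share of a peak under DRIP was 71.4% (quartiles 40 and 100%), and 129 peaks (38.9%) lay under DRIP from end to end. A single DRIP peak was present at 300 of them, and 32 held 2 or more. Of the 367 pairs of RNAPII and DRIP peak, the DRIP peak lay wholly within the RNAPII peak in 106 (28.9%), enclosed it in 111 (30.2%), and overlapped it partly in 150 (40.9%). Among the 325 DRIP peaks the median width was 1250 bp and the authors' DRIP score had a median of 101 (quartiles 59 and 266), in a list with a lowest score of 38. The 1932 DRIP peaks on RNAPII with NELF-A had medians of 1250 bp and 111, and the 7716 on no RNAPII peak had 500 bp and 45. Per 250 bp the median DRIP scores lay close together, at 21.4, 21.7 and 20.2 in the same order, with a floor of the list at 18.8.

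The least coverage that the rule allows falls as the RNAPII peak widens, and coverage by DRIP was lower in the wider classes. It had a median of 100% at 500 to 750 bp, 75% at 1000 to 1500 bp and 50% at 1750 to 4750 bp. In peaks with DRIP and both NELF subunits the medians were 100%, 50% and 58.3%, and in those with DRIP and NELF-A but no NELF-B 66.7%, 50% and 57.1%. These extents come from the overlap that chose the classes and were not tested against each other.

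The highest DRIP scores on these peaks belonged to DRIP peaks much wider than the RNAPII peak beneath. DRIP score rose with width across the DRIP list (Spearman's rho 0.938, n = 10031 peaks), a description of how the score is built. Per 250 bp, the DRIP peaks named here scored 35.8 to 54.4, against a median of 21.4 over the 325 DRIP peaks. The highest DRIP score, 1751, ranked 27 in the DRIP list and belonged to a 10000 bp DRIP peak on chromosome 19. It enclosed the 1000 bp RNAPII peak from 9082501 to 9083500 and also overlapped the adjacent 18750 bp RNAPII peak with NELF-A. On chromosome 17, the RNAPII peak from 35521251 to 35522250 lay within an 8000 bp DRIP peak of rank 28 that also reached a NELF-A-holding RNAPII peak 1000 bp away. On chromosome 3, the 3500 bp RNAPII peak from 104598001 to 104601500 lay wholly under an 8000 bp DRIP peak of rank 49, likewise shared with NELF-A-holding RNAPII. The DRIP peak of rank 29, 11750 bp wide on chromosome 2, was of a different kind. It covered 2 short RNAPII peaks, from 33071501 to 33072000 with a score of 107 and from 33072251 to 33073000 with 159. Their nearest RNAPII peak with NELF-A was 248000 and 248750 bp away.

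The distance to the nearest RNAPII peak that holds NELF-A, called the NELF-A partner below, was under 10 kb for 66.0% of the peaks. The gap between the facing ends had a median of 4875 bp (quartiles 750 and 16250; range 0 to 397250 bp). The partner touched the peak in 28 cases (8.43%) and lay 250 or 500 bp away in another 50. It was within 1 kb of 100 peaks (30.1%), within 3 kb of 145 (43.7%), within 10 kb of 219 (66.0%, interval 60.7 to 70.9%) and within 30 kb of 279 (84.0%). Of all 2021 NELF-free RNAPII peaks under 5000 bp, 50.8% had a partner within 10 kb. Just 13 of the 332 peaks (3.92%) were over 100 kb from a partner. The median depended on the peaks admitted: it was 13500 bp, with 44.1% within 10 kb, when each list was limited to its upper 50% by score. With 1 NELF-free peak per neighbourhood of RNAPII peaks it was 1500 bp.

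DRIP-bearing NELF-free peaks lay closer to NELF-A than NELF-free peaks without DRIP did. The 1689 RNAPII peaks under 5000 bp with neither DRIP nor NELF, called RNAPII-only peaks, had a median gap of 11250 bp to a partner, and 47.8% (45.4 to 50.2%) had one within 10 kb. The odds ratio of lying within 10 kb was 2.12 (95% Woolf interval 1.66 to 2.71). It was 2.23 (1.70 to 2.91) for 1 kb, 2.01 (1.58 to 2.56) for 3 kb and 2.04 (1.49 to 2.79) for 30 kb. All intervals cover counting error alone, since there was 1 list per target and peaks are not replicates. With a single NELF-free peak, that of lowest coordinate, taken from each neighbourhood of RNAPII peaks (joined across gaps of up to 10 kb) the odds ratio for 10 kb was 3.21 (2.24 to 4.59). The joining gap equals the distance asked about, and this value was not matched for width or for distance to other RNAPII peaks.

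**Figure D2:**
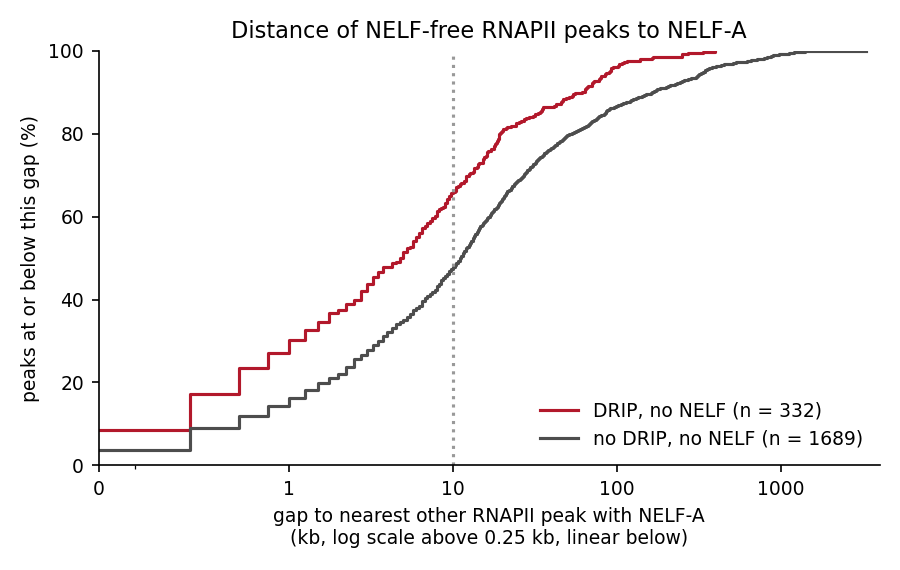
Cumulative share of NELF-free RNAPII peaks (vertical axis, %) against the gap to the nearest other RNAPII peak that holds NELF-A (horizontal axis, kb, log scale above 0.25 kb) for peaks with DRIP (red, n = 332) and without (grey, n = 1689). The red line lies above the grey at 10 kb (dotted line), at 66.0% against 47.8%, and medians are 4875 and 11250 bp.

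Width and crowding of RNAPII peaks moved with this difference. Values at equal width and at equal class of distance to the nearest RNAPII peak are given beside it. The number of RNAPII peaks around was not matched. DRIP was found at 8.84% of NELF-free peaks of 500 bp, at 16.4% of those of 1000 bp and at 42.0% of those of 3500 to 4750 bp. Pooled over exact widths, the odds ratio of a partner within 10 kb was 1.91 (1.49 to 2.46). Within 3 classes of width it was 1.67 (1.13 to 2.46) at 500 to 750 bp, 2.17 (1.34 to 3.51) at 1000 to 1500 bp and 2.34 (1.49 to 3.66) at 1750 to 4750 bp, and whether these 3 differ was not tested. Another RNAPII peak of any kind lay within 1 kb of 236 DRIP-bearing NELF-free peaks (71.1%) and 51.2% of RNAPII-only peaks, against 54.5% of all NELF-free peaks, an odds ratio of 2.34 (1.81 to 3.02). For a partner within 10 kb the odds ratio was 1.54 (1.17 to 2.04) among peaks of the same distance class to their nearest RNAPII neighbour, and 1.44 (1.07 to 1.92) among those of the same width as well. At 30 kb the latter was 1.28 (0.894 to 1.82), so that the interval spans 1.

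The share of NELF-free peaks with DRIP was highest where the NELF-A partner touched the peak and lowest beyond 100 kb. The fall between was not steady, and the classes were not matched for width or for distance to other RNAPII peaks. The share was 30.4% (22 to 40.5%) where the partner touched the peak and 25.5% (20.8 to 30.9%) at gaps of 250 to 1000 bp. It was 18.7% at 1250 to 3000 bp and 18.0% at 3250 to 10000 bp. At 10250 to 30000 bp it was 12.8%, at 30250 to 100000 bp 13.9%, and beyond 100 kb it was 5.46% (3.22 to 9.12%, 13 of 238 peaks). The intervals of neighbouring classes overlap, except that the class beyond 100 kb lies below the one before it (10.4 to 18.4%). Median RNAPII width was 875 bp in the touching class, 1000 bp at 250 to 1000 bp and 750 bp beyond 100 kb.

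**Figure D3:**
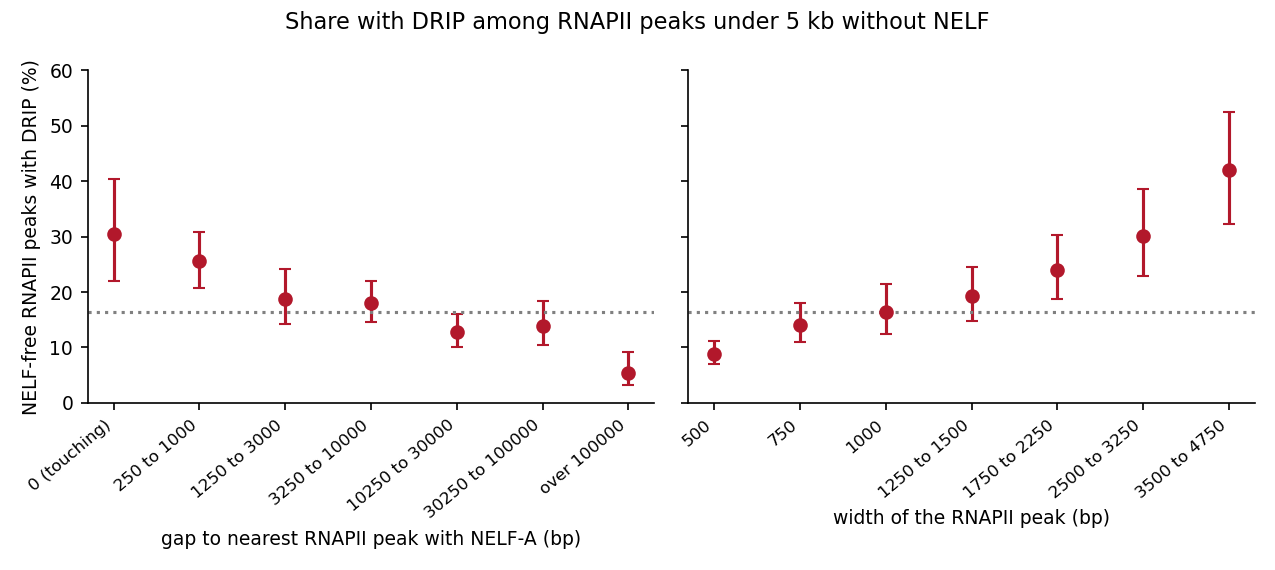
Share of NELF-free RNAPII peaks under 5 kb that carry DRIP (vertical axis, %, points with 95% Wilson intervals) by gap to the nearest RNAPII peak with NELF-A (left, bp) and by RNAPII peak width (right, bp). The dotted line is the share over all 2021 such peaks, 16.4%; on the left the share is 30.4% where NELF-A-holding RNAPII touches and 5.46% beyond 100 kb, and on the right it is 8.84% at 500 bp and 42.0% at 3500 to 4750 bp.

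Compared with RNAPII peaks under 5000 bp that carried both DRIP and NELF, NELF-free peaks with and without DRIP lay in denser surroundings. Another RNAPII peak was within 10 kb of 300 DRIP-bearing NELF-free peaks (90.4%, interval 86.7 to 93.1%). It was within 10 kb of 74.8% of RNAPII-only peaks and of 77.4% of all NELF-free peaks. It was within 10 kb of 40.5% of the 402 peaks with DRIP and NELF-A but no NELF-B, and of 39.5% of the 669 with DRIP and both subunits. At equal width the odds ratios of DRIP-bearing NELF-free peaks against these classes were 14.8 (9.40 to 23.2) and 20.6 (12.8 to 33.2). That NELF-free RNAPII lies near other RNAPII was known before the comparisons were chosen, so these values are a description. A further RNAPII peak with NELF-A was within 10 kb of 27.1% and 18.2% of these 2 classes, against the 66.0% of DRIP-bearing NELF-free peaks, with odds ratios of 5.21 (3.8 to 7.15) and 8.69 (6.44 to 11.7). Once width and distance class were matched, the first of these was 1.34 (0.829 to 2.18), with an interval that spans 1, and the second was 3.11 (2.06 to 4.71). Peaks of these 2 classes hold NELF-A by definition, and a peak is not counted as near itself. The odds ratios for a further peak with NELF-A are therefore a description as well, matched or not.

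The immediate RNAPII neighbour held NELF-A in under 50% of cases. The nearest RNAPII peak held NELF-A for 137 DRIP-bearing NELF-free peaks (41.3%) and for 41.8% of RNAPII-only peaks, an odds ratio of 0.978 (0.770 to 1.24), while 72.3% of the RNAPII list held NELF-A. At equal width and distance class this odds ratio was 1.53 (1.18 to 1.99). Of the 219 peaks with a partner within 10 kb, 140 (63.9%, interval 57.4 to 70.0%) were next in line to it, 44 had 1 RNAPII peak between and 35 had 2 or more. For RNAPII-only peaks the share next in line was 59.9%, an odds ratio of 1.19 (0.872 to 1.62) that was 1.57 (1.12 to 2.19) at equal width and distance class. The partner lay at lower coordinates in 114 cases and at higher coordinates in 105. A DRIP peak not on the compared peak stood on the nearest RNAPII neighbour of 37.0% of DRIP-bearing NELF-free peaks and 22.4% of RNAPII-only peaks, an odds ratio of 2.04 (1.59 to 2.62).

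The NELF-A partners of these peaks often carried DRIP themselves. Of the 219 partners counted per peak, 182 (83.1%, interval 77.6 to 87.5%) overlapped DRIP, against 52.5% for RNAPII-only peaks with a partner within 10 kb and 23.7% of all RNAPII peaks with NELF-A. In 37 of the 182 the partner held no DRIP peak except one that also lay on the NELF-free peak. Counting those as without, 145 partners (66.2%, 59.7 to 72.1%) held a DRIP peak of their own, an odds ratio of 1.77 (1.30 to 2.42) against RNAPII-only peaks. With NELF-free peaks limited to under 2000 bp it was 1.43 (0.990 to 2.08), with an interval that spans 1. Leaving out every DRIP-bearing NELF-free peak whose DRIP peak also lay on NELF-A-holding RNAPII gave 3.05 (2.04 to 4.55). Partners of 5000 bp or more made up 28.8% and 28.9% for the 2 classes, an odds ratio of 0.995 (0.715 to 1.38). Both shares count a partner once for each NELF-free peak near it. Counted once each, 39 of 169 distinct partners of DRIP-bearing NELF-free peaks (23.1%) were that wide. Of all RNAPII peaks with NELF-A, 5.52% were that wide.

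Several peaks shared a partner, and the same comparison was therefore made over distinct partners. The 219 peaks had 169 distinct partners, of median width 2500 bp (quartiles 1750 and 4500), of which 125 (74.0%) held NELF-B and 134 (79.3%, interval 72.6 to 84.7%) held DRIP. The 443 distinct partners of RNAPII-only peaks alone had a median width of 2250 bp, and 196 (44.2%, 39.7 to 48.9%) held DRIP. These counts include DRIP peaks that also lie on the NELF-free peak, so they are a description. Over DRIP peaks that lie on none of the 332 peaks, 102 of the 169 partners (60.4%, 52.8 to 67.4%) held DRIP, against the same 196 of 443. The odds ratio was 1.92 (1.34 to 2.75), and at equal width of the partner 1.90 (1.26 to 2.86).

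Most of the DRIP peaks did not reach NELF-A-holding RNAPII. Of the 325 DRIP peaks, 58 also overlapped an RNAPII peak with NELF-A, whereas 83.5% of all 2315 DRIP peaks on RNAPII did so. The latter share includes DRIP peaks on NELF-A-holding RNAPII by itself, which the rule leaves out. Counted per peak, 66 of the 332 (19.9%, interval 15.9 to 24.5%) had such a shared DRIP peak. Without those 66, the odds ratio of a partner within 10 kb was 1.48 (1.14 to 1.92) and the median gap 7750 bp. Of the 325 DRIP peaks, 94 (28.9%) spanned more than 1 RNAPII peak of any kind. That share was not set against all DRIP peaks on RNAPII and is a description.

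Within a peak, DRIP lay off centre more often towards the NELF-A partner than away from it. A DRIP peak that also overlaps the partner covers the facing end of the peak, so in such cases the side is set in advance. Among the 219 peaks with a partner within 10 kb, the middle of the DRIP-covered part lay off centre towards the partner in 77, off centre away from it in 48, and at the centre in 94. The share towards the partner was 61.6% (52.8 to 69.7%) of those off centre. Without the peaks whose DRIP peak also overlapped NELF-A-holding RNAPII it was 53.2% (43.2 to 63.0%, 50 against 44), an interval that includes an even split of 50%. Whether this share differs from the 61.6% was not tested.

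RNAPII peaks were joined into neighbourhoods across gaps of up to 10 kb, and the DRIP-bearing NELF-free peaks fell into 227 of the 5587 neighbourhoods. In 166 neighbourhoods there was 1 such peak, in 37 there were 2, in 13 there were 3, and 11 held 4 or more. NELF-A was present somewhere in 175 of the 227 (77.1%, interval 71.2 to 82.1%) and in 413 of 916 neighbourhoods that held RNAPII-only peaks and no DRIP-bearing NELF-free peak (45.1%, 41.9 to 48.3%). The first kind was larger, with a median of 3 RNAPII peaks over 9.75 kb, against 2 peaks over 2.50 kb, and the part of size in that difference was not tested. By peaks, 137 of the 332 lay in neighbourhoods of 5 or more RNAPII peaks, 163 in those of 2 to 4, and 32 were the single RNAPII peak of theirs. An RNAPII peak of 5000 bp or more stood in the same neighbourhood for 114 (34.3%). The counts by neighbourhood size and by wide peaks were not set against RNAPII-only peaks, so they are a description of the 332.

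The 5 neighbourhoods with the most such peaks held trains of RNAPII peaks, several of them under DRIP, with NELF peaks on the outermost RNAPII peaks alone. The first, on chromosome 17 from 6938001 to 6987750, held 17 RNAPII peaks, of which 7 had DRIP and no NELF. These 7 were 500 to 1250 bp wide with scores of 104 to 301. They lay 24250 to 35500 bp from an 8250 bp RNAPII peak with NELF-A and NELF-B at the far end. The second, on chromosome 3 from 135303751 to 135355250, held 18 RNAPII peaks and 6 of the class. A 7000 bp RNAPII peak with NELF-A and DRIP closed its end, 3000 to 17750 bp away, and the scores of the 6 reached from 105 to 1004.

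The third neighbourhood, on chromosome 15 from 6792751 to 6825250, held 11 RNAPII peaks and again 6 of the class. The last of these, from 6819501 to 6823000 with a score of 1172, touched the terminal RNAPII peak with NELF-A, which scored 1106. A single DRIP peak of score 597 overlapped both. In the next, on chromosome 7 from 16683501 to 16705750, all 8 RNAPII peaks carried DRIP. NELF-A occupied the first and the last of them, and the 6 between had DRIP and no NELF. DRIP peaks of scores 963 and 1198 extended from the outer RNAPII peaks inwards. No NELF-B peak was listed on the RNAPII peaks of these neighbourhoods of chromosomes 3, 15 and 7. In the last, on chromosome 4 from 100820751 to 100938500, 4 of 22 RNAPII peaks belonged to the class, 71000 to 92750 bp from a 22500 bp RNAPII peak with NELF-A, NELF-B and DRIP at the other end.

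**Figure D4:**
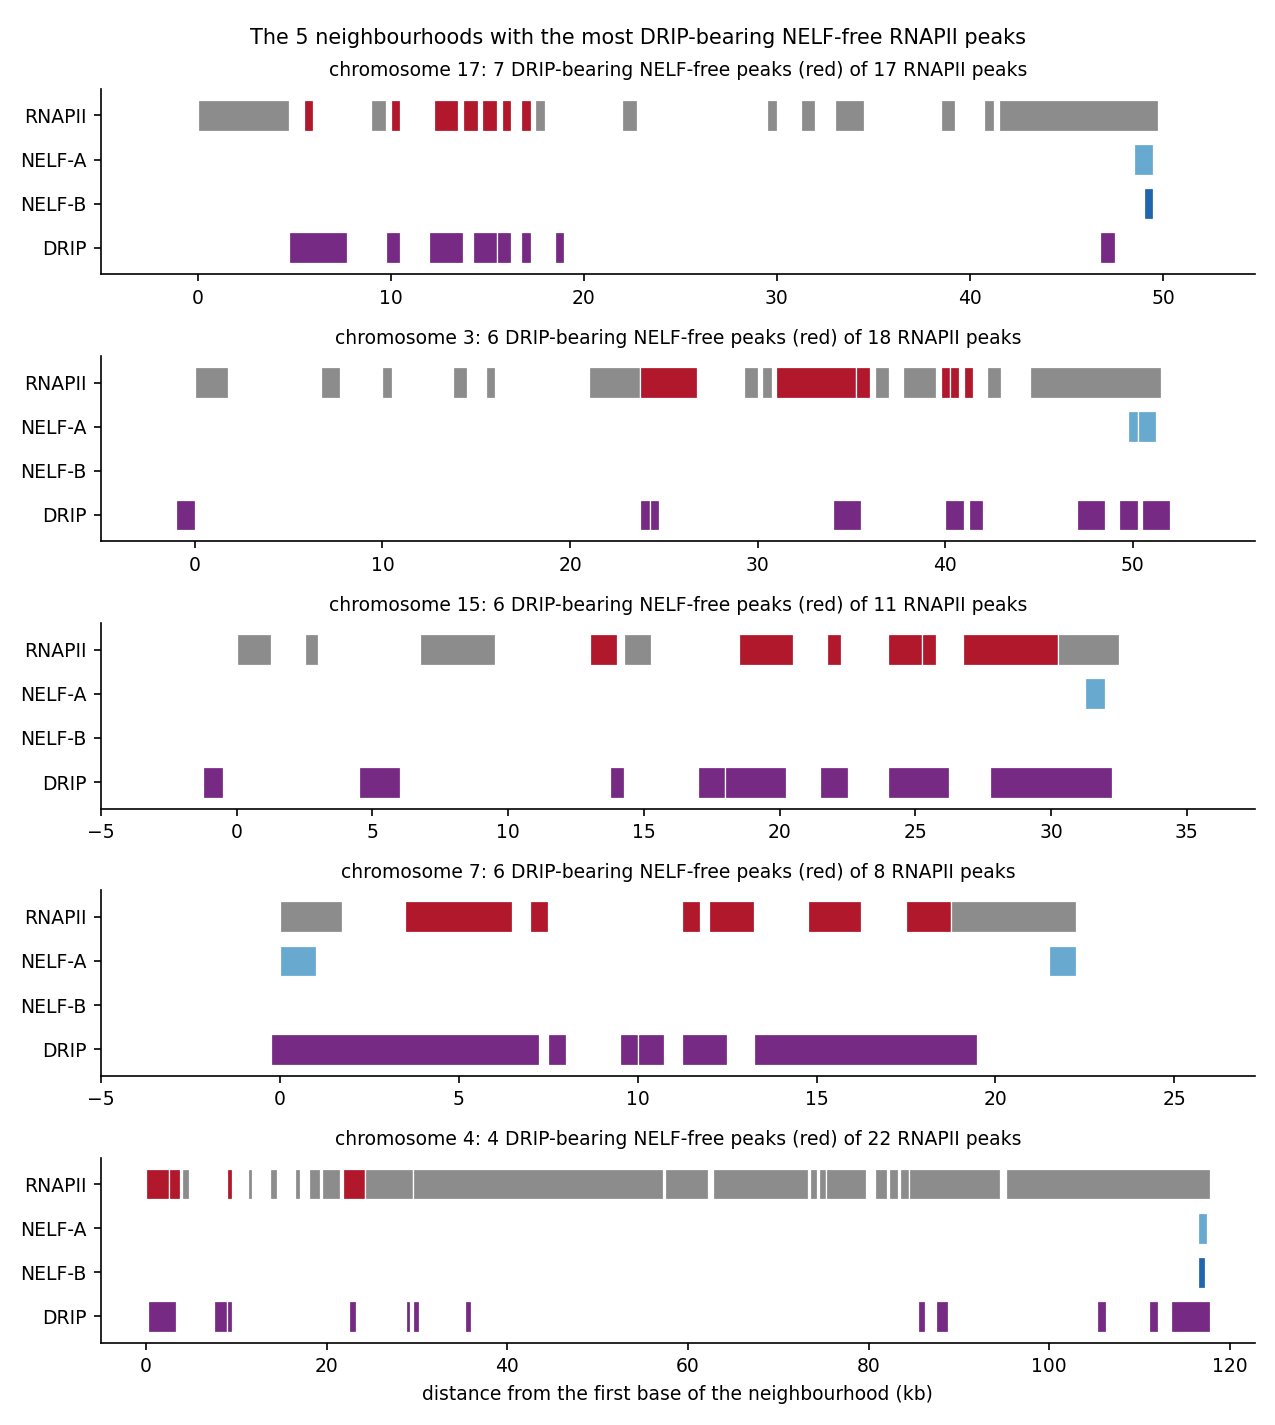
Maps of the 5 neighbourhoods with the most DRIP-bearing NELF-free peaks: distance from the first base of the neighbourhood (horizontal axis, kb) and the 4 peak lists (rows), each block being 1 listed peak to scale, with DRIP-bearing NELF-free RNAPII peaks in red. The 4 to 7 red peaks of each map stand over DRIP blocks, and NELF-A blocks lie at the last RNAPII peak of each map and, on chromosome 7, also at the first.

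A smaller group lay far from NELF-A-holding RNAPII. The partner was over 10 kb away for 113 of the 332 peaks. Of these, 81 still had another RNAPII peak within 10 kb, 14 had a NELF-A peak within 10 kb, and 25 had neither. The 32 peaks with no other RNAPII within 10 kb were 1000 bp wide at the median and scored 214.5 at the median. The farthest, on chromosome 5 from 116872001 to 116873250, scored 377, was 397250 bp from its partner and had DRIP over 20% of its length. The next, on chromosome 6 from 42642001 to 42643500, scored 360, was 336000 bp from its partner and 326500 bp from any RNAPII peak. On chromosome 2, the peak from 148231751 to 148234500 scored 772, was 272000 bp from its partner and had another RNAPII peak 1250 bp away. The other 2 of the 5 farthest were the short peaks near 33 Mb on chromosome 2 described above. The DRIP peaks at the first 3 were 500 to 750 bp wide.

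At the median, the listed NELF peaks themselves were farther away than the RNAPII peaks that hold NELF-A. The nearest NELF-A peak was at a median of 6750 bp. It lay within 1 kb of 44 of the 332 peaks (13.3%) and within 10 kb of 209 (63.0%), against 44.8% of RNAPII-only peaks. For 34 peaks (10.2%) the nearest NELF-A peak stood on no RNAPII peak. Within 30 kb, a NELF-A peak was found for 283 peaks and a partner for 279. The nearest NELF-B peak was at a median of 14250 bp, against 32500 bp for RNAPII-only peaks, and within 10 kb of 145 (43.7%) against 25.2%. The gap to a NELF-A peak can exceed that to its RNAPII peak, since NELF covers only a part of a wide RNAPII peak.

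The peaks occurred on all 19 autosomes and the X chromosome, in unequal shares of the NELF-free RNAPII. Chromosome 7 held the most, 36, followed by chromosome 4 with 32 and chromosome 11 with 31. DRIP was present at 27.9% (20.9 to 36.2%) of the 129 NELF-free peaks of chromosome 7, at 27.1% on chromosome 8, at 26.2% (19.2 to 34.7%) on chromosome 4 and at 25.8% on chromosome 19. It was present at 7.69% (3.78 to 15.0%) of the 91 on chromosome 9 and at 8.33% of the 36 on the X chromosome. Among RNAPII peaks under 5000 bp with NELF-A, chromosome 11 had the highest share with DRIP, 28.5% (24.6 to 32.8%), while its NELF-free peaks were at 14.8% (10.6 to 20.2%). Chromosome 7 followed with 26.4%, and chromosome 15 had 25.5%, beside 22.8% of its NELF-free peaks. On chromosome 8 the share with NELF-A was the lowest, 15.0% (11.1 to 19.9%). The 20 chromosomes were not tested against each other.

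**Figure D5:**
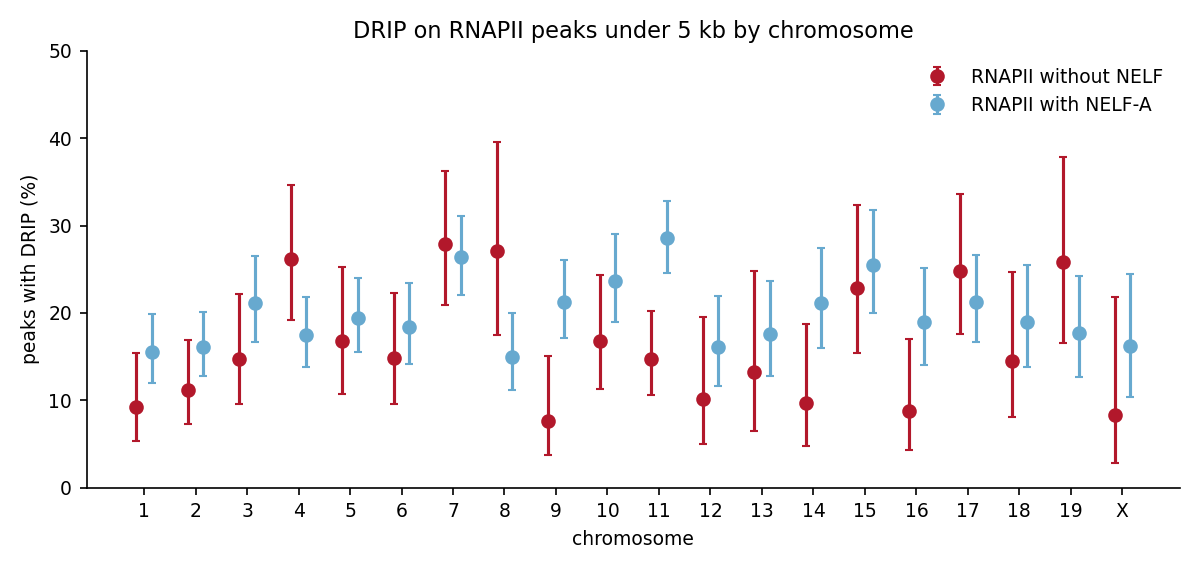
Share of RNAPII peaks under 5 kb that carry DRIP (vertical axis, %, points with 95% Wilson intervals) on each chromosome (horizontal axis) for peaks without NELF (red) and with NELF-A (blue). The red points run from 7.69% on chromosome 9 to 27.9% on chromosome 7, and on chromosome 11 the blue point, at 28.5%, lies above the red one, at 14.8%.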

How the data were processed

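RNAPII, NELF-A and NELF-B ChIP-seq and DRIP-seq were profiled in 4 samples with a peak list each. BWA and the mm9 build are named in the submitters' processing notes. The peak caller, its threshold, input controls and how libraries were pooled were not given in the sources used here. The deposited score is 1 whole number per peak with no stated unit. It was used only within a list. Positions are 1-based, on a 250 bp grid. Sequencing depth is unknown, so precision is that of peak counts.

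Overlap meant 1 bp or more. Gaps are bases between facing ends. Shares carry 95% Wilson intervals, odds ratios Woolf intervals, and pooled odds ratios are Mantel-Haenszel estimates over exact width, 4 classes of distance to the nearest RNAPII peak (up to 1, 3 and 10 kb, and beyond), or both. No p-values were computed. Functions were tested on simulated data (Python 3.11.15, scipy 1.17.1, pandas 2.3.3). Alternatives were other overlaps, score and width limits, merged touching peaks and removal of the X chromosome.

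Regions named were the 10 highest by RNAPII score, the 5 highest by DRIP score, the 5 widest (ties by score), the 5 farthest from NELF-A-holding RNAPII and the 5 neighbourhoods with most members (ties by number of RNAPII peaks). Members and comparisons were chosen with earlier results of these data known, among them that NELF-free RNAPII peaks lie near other RNAPII. Gene context, sequence features and marker genes were planned and not run, because the annotation in use is not of mm9.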

Additional observations from a re-analysis of the deposited data

How the results depend on the processing

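No call reversed. Over 13 alternatives at 10 kb the odds ratio of a partner stayed above 1 with its interval, from 1.438 to 3.206. At 30 kb it was 1.35 (0.953 to 1.90) at equal distance class and 1.28 (0.894 to 1.82) at equal width as well, so both intervals span 1. The odds ratio of a partner's own DRIP peak stayed above 1 with its interval in 13 of 14 and was 1.434 with a 2000 bp width limit. Settings after the data were seen were the equal-distance classes, equal partner width, distinct partners, 1 peak per neighbourhood (that of lowest coordinate), leaving out shared DRIP peaks or the top 1% by score per base, and every value on a partner's own DRIP peak. Neither removal of the X chromosome nor of the top 1% moved a result beyond its interval.

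The share within 10 kb became 44.14% in the upper 50% by score, 57.52% without shared DRIP peaks and 71.08% with 1 peak per neighbourhood; the share within 3 kb was 43.67% and within 30 kb 84.04%. The median gap was 13500 bp, 7750 bp and 1500 bp under the first 3 of these settings. Members with a DRIP peak shared with NELF-A-holding RNAPII were 11.04% with 50% of the shorter peak, 32.99% within 1000 bp, 11.71% in the upper 50% by score and 28.31% with 1 peak per neighbourhood. Median DRIP coverage was 27.53% within 1000 bp, where touching is not needed, 60.77% in the upper 50% by score and 100% under 2000 bp. With 1 peak per neighbourhood 166 members were left, fewer by construction; elsewhere the cause was not tested. No paired analysis was possible because each target had 1 list; for the same reason no replicate was left out.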
